A study of Mus musculus with 5480 samples.

Results

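Myofibroblasts and early airway smooth muscle cells, a pair of contractile cell classes of the newborn mouse lung, were compared within the same mice on postnatal day 7. Their members were the cells that the authors' subtype label calls "Myofibroblast" or "Early airway smooth muscle" at P7 under normal treatment (no hyperoxia), called normal air here. There were 478 such cells among the 5480 of the series, namely 339 myofibroblasts (155 from the female mouse FP7 and 184 from the male mouse MP7) and 139 airway smooth muscle cells (75 and 64). The series sampled single sorted cells of distal lung (all but 1 of the 478 from a mesenchymal sort) from male and female mice at several ages, with mice under hyperoxia (raised oxygen) at P7. Besides the P7 normal mice, the fit held 1 female and 1 male mouse at P1 under normal treatment (71 myofibroblasts and 61 airway smooth muscle cells) and 1 of each sex at P7 under hyperoxia (103 and 80). The labels used here give no strain, transgene or oxygen level, and each age and treatment was represented by 1 mouse per sex, so that p-values measure the spread between these few animals.

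Airway smooth muscle wraps the conducting airways in bundles and sets their calibre through actin and myosin filaments. Alveolar myofibroblasts share many of those contractile proteins but sit at the tips of the growing septa, where they respond to platelet-derived growth factor through the receptor Pdgfra and lay down elastin while the alveoli form. Both classes receive hedgehog and Wnt signals from neighbouring cells, and genes such as Hhip, Lgr6 and Pdgfra are commonly used to tell them apart.

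The reads of all cells of a class in a mouse were summed into 1 library. The 4 libraries of P7 normal mice held 62487781 to 213051124 reads, and the other 8 held 21127189 to 49607077. When every cell was thinned to 100000 reads, airway smooth muscle cells had a median of 3159 (FP7) and 2992 (MP7) detected genes, against 2244 and 2136.5 in myofibroblasts, so the latter were the less complex libraries at equal depth in both mice. The labels do not say how the subtypes were assigned. Where that was done from the expression of these cells, the class differences are partly in the definition, so the p-values show how well the mice agree and are no test that the classes exist.

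The label was checked against markers. All 7 airway smooth muscle markers (Acta2, Actg2, Myh11, Cnn1, Des, Lgr6 and Actc1) had higher values in both libraries labelled airway smooth muscle than in both labelled myofibroblast. Of 6 myofibroblast markers, Pdgfra, P2ry14 and Stc1 were higher in both myofibroblast libraries, whereas Tgfbi, Wnt5a and Fgf18 were higher in both airway smooth muscle libraries. Over all genes tested, both myofibroblast libraries lay above both airway smooth muscle libraries for 23.8% and below them for 20.1%. At P7 the 6 markers summed to 8477 and 6482 CPM (the usual read count per gene scaled to library size) in myofibroblasts (FP7 and MP7). Their sum was higher in airway smooth muscle, at 12804 and 10757 CPM. It was at most 1596 CPM in early alveolar fibroblasts, early adventitial fibroblasts, vascular smooth muscle and pericytes. The summed level therefore set both classes apart from those 4. Only 3 of the 6 members were higher in the cells the list is named for. Tgfbi was the largest part of the sum in both classes (4900 and 3263 CPM in myofibroblasts, 9760 and 8164 CPM in airway smooth muscle). Not every member set them apart: P2ry14 was at 1300 and 1419 CPM in pericytes, against 1543 and 1419 CPM in airway smooth muscle. The 7 airway smooth muscle markers did not set that class apart from vascular smooth muscle by their sum. It was 16662 and 21066 CPM in airway smooth muscle and 27671 and 21266 CPM in vascular smooth muscle (FP7 and MP7). Acta2 was higher in vascular smooth muscle, Actg2, Cnn1 and Lgr6 were lower, and Myh11, Des and Actc1 overlapped.

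Myofibroblasts had more carbonic anhydrase, matrix Gla protein and cyclin RNA, and airway smooth muscle had more RNA for autotaxin, connexin, periostin and a set of matrix and signalling proteins. With edgeR's quasi-likelihood test (mouse as a block, Benjamini-Hochberg adjustment), 7 of 14244 genes were higher in myofibroblasts (0.0491% of the genes tested) and 11 were lower (0.0772%) at an adjusted p under 0.05. At an unadjusted p under 0.05 the numbers were 650 and 520. The count depended on the tool and on the mice. DESeq2 called 351 higher and 417 lower, all 18 edgeR genes among them, no gene passed when either P7 normal mouse was left out, and 15 higher and 19 lower passed without the mouse block, 16 of the 18 among them. Fitted on the 4 P7 normal libraries alone, edgeR called 28 higher and 67 lower. Of the list members described below that did not pass in the fit of all 12 libraries, Pdgfra, Htra1, Rrm2 and Cd34 were then called higher, and Cnn1, Myocd, Kcnma1, Ednrb, Hhip, Lgr6, Grem1, Fst, Id2, Id4, Tgfbi, Mfap5, Aspn, Col12a1, Ntn1 and Rgs5 lower.

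Car2, a carbonic anhydrase, was the most certain of the genes higher in myofibroblasts. It measured 4002 CPM in FP7 and 4779 CPM in MP7, against 743 and 904 CPM in the airway smooth muscle of the same mice, a log2 difference of 2.42 ± 0.17 (SE; edgeR adjusted p = 0.00697, n = 2 mice). The myofibroblast libraries lay far above the airway smooth muscle libraries in both animals. Mgp, matrix Gla protein, an inhibitor of calcification, stood at 1531 and 2021 CPM against 355 and 307 CPM (log2 difference 2.41 ± 0.20). Ccnd2, a D-type cyclin that drives entry into the cell cycle, stood at 1236 and 1300 CPM against 318 and 294 CPM (2.05 ± 0.20). Both genes were separated between the classes by more than the gap between the mice.

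Among the 7 called genes, Aard gave the largest difference in this direction, with 352 and 390 CPM in myofibroblasts against 30.0 and 44.5 CPM in airway smooth muscle (log2 difference 3.34 ± 0.33, edgeR adjusted p = 0.0141). Tmem178, a transmembrane protein gene, read 156 and 201 CPM against 25.8 and 24.0 CPM (2.83 ± 0.33). Penk, which encodes the precursor of the enkephalin peptides, read 157 and 168 CPM against 20.2 and 35.7 CPM (2.60 ± 0.29). For these 3 genes too, the lower myofibroblast library exceeded the higher airway smooth muscle library. Tmsb10, an actin-monomer-binding thymosin, had the smallest difference of the 7, with 1045 and 990 CPM against 345 and 370 CPM (1.51 ± 0.18, edgeR adjusted p = 0.0315).

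Enpp2, which encodes autotaxin, the enzyme that makes lysophosphatidic acid outside cells, had the smallest p-value of all. It measured 814 CPM in FP7 and 1138 CPM in MP7 airway smooth muscle and only 60.4 and 74.1 CPM in myofibroblasts, so that myofibroblasts were lower by a log2 difference of -3.85 ± 0.24 (edgeR adjusted p = 0.00587). Gja1, the gap-junction protein connexin, followed with 762 and 1279 CPM against 86.7 and 90.1 CPM (-3.48 ± 0.27). Kcnj8, the pore of an ATP-sensitive potassium channel, had 604 and 621 CPM against 57.7 and 62.1 CPM (-3.35 ± 0.31). The 3 genes were higher in airway smooth muscle in both mice with no overlap.

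Regulators and membrane proteins made up a second set. Scx, scleraxis, a transcription factor best known from tendon, had 217 and 216 CPM in airway smooth muscle against 13.0 and 9.71 CPM in myofibroblasts (log2 difference -4.27 ± 0.44). Net1, an exchange factor that activates the small GTPase RhoA, had 964 and 961 CPM against 187 and 202 CPM (-2.31 ± 0.21). Lrrc15, a leucine-rich-repeat membrane protein, had 529 and 601 CPM against 68.4 and 50.8 CPM (-3.26 ± 0.34). All 3 agreed closely between the mice.

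The largest differences among the 18 called genes belonged to Adap1, a GTPase-activating protein for Arf, and Anxa8, an annexin. Adap1 had 94.1 and 87.7 CPM in airway smooth muscle and 0.385 and 0.830 CPM in myofibroblasts, where the libraries held 65 and 181 reads of it (log2 difference -7.32 ± 0.89, edgeR adjusted p = 0.0364). Anxa8 had 110 and 207 CPM against 3.98 and 3.82 CPM (-5.27 ± 0.45). Few cells carried either RNA. Anxa8 was read in 14.7% and 17.5% of airway smooth muscle cells and in 0.658% and 0.562% of myofibroblasts at 100000 reads per cell, and Adap1 in 29.3% and 34.9% against 2.63% and 0.562%.

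Among secreted proteins, Postn (periostin, a matrix protein that binds integrins) had 1701 and 1197 CPM in airway smooth muscle against 206 and 160 CPM in myofibroblasts (log2 difference -2.97 ± 0.28). Igfbp4, which binds insulin-like growth factors, had 652 and 468 CPM against 87.9 and 91.8 CPM (-2.62 ± 0.27). Mfap4, a protein associated with elastic microfibrils, had 1927 and 2535 CPM against 361 and 608 CPM (-2.24 ± 0.19). The classes did not overlap for any of the 3, although Mfap4 differed more between the myofibroblasts of the mice than the other two did.

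**Figure D1:**
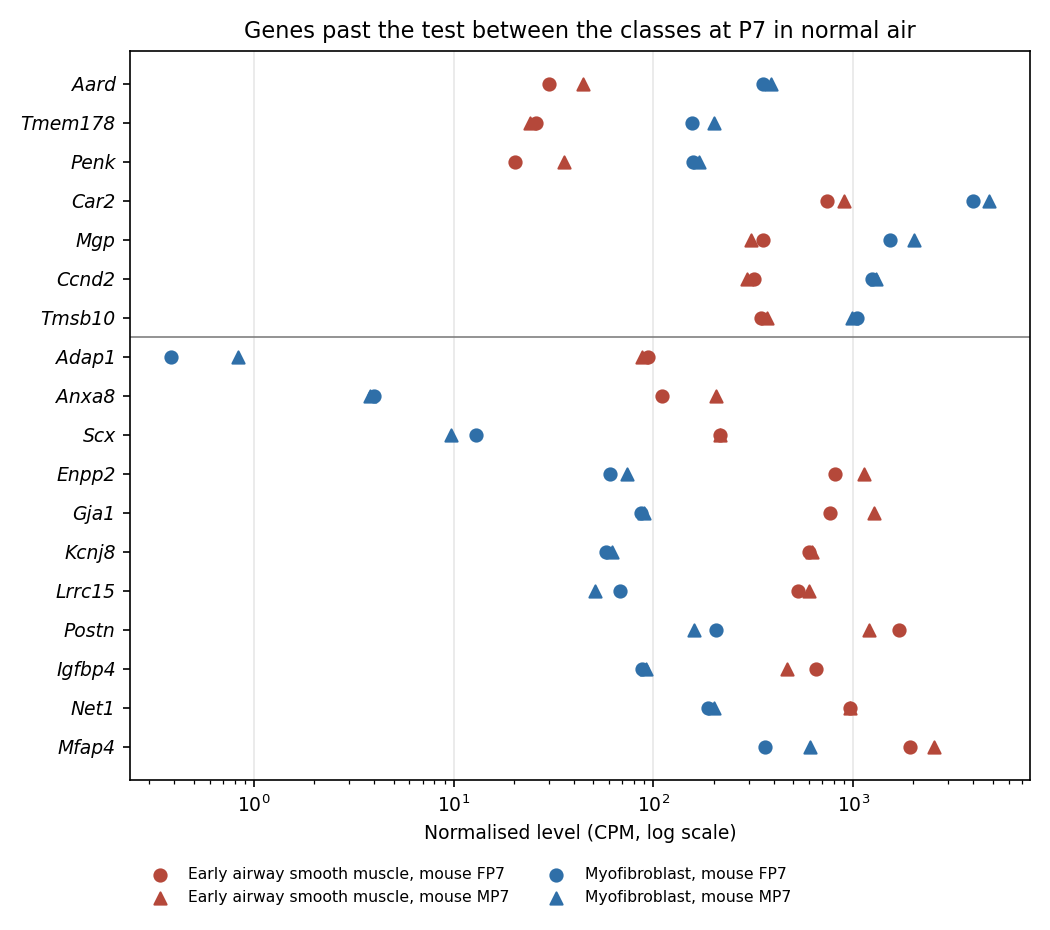
Normalised level (CPM, log axis) of the 18 genes with an adjusted p under 0.05 in each of the 4 libraries at P7 in normal air; red is early airway smooth muscle, blue is myofibroblast, circles are mouse FP7 and triangles MP7. The 7 genes above the line were higher and the 11 below it lower in myofibroblasts, and no gene shows overlapping classes.

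The other mesenchymal classes of these mice put the 18 genes in context, as values without a test and scaled to total reads. Scx, Gja1, Lrrc15 and Anxa8 were at most 45.4 CPM in each of the 4 other classes that hold no myofibroblasts (early alveolar and early adventitial fibroblasts, vascular smooth muscle and pericytes), below both airway smooth muscle libraries. Mfap4 and Igfbp4 were not of that kind: Mfap4 reached 17691 and 27720 CPM in early alveolar fibroblasts, above airway smooth muscle (1964 and 2472 CPM on this scale). Car2 was at 5290 and 4281 CPM in pericytes, near the 4067 and 4892 CPM of myofibroblasts, and at 25.9 and 3.59 CPM in vascular smooth muscle. Ccnd2 in pericytes (1349 and 1199 CPM) was also near myofibroblasts (1256 and 1331 CPM). Tmem178 was higher in pericytes (579 and 328 against 158 and 205 CPM), and Tmsb10 in early alveolar fibroblasts (1229 and 1263 against 1062 and 1014 CPM). Penk (319 and 587 against 160 and 172 CPM) and Mgp (7880 and 7018 against 1556 and 2069 CPM) were higher in early adventitial fibroblasts. Aard, at 357 and 399 CPM in myofibroblasts, was at most 118 CPM in those 4 classes. Postn was highest in pericytes (7690 and 10539 CPM).

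Both classes expressed the contractile apparatus, and airway smooth muscle had more of most of it. Of 25 listed genes, both myofibroblast libraries lay below both airway smooth muscle libraries for 18 and above them for 3, where 20.1% of all genes tested lay below and 23.8% above. The median log2 difference of the list was -0.62, against 0.06 over all genes tested. No member passed in edgeR (12 lower and 1 higher at an unadjusted p under 0.05) or in limma on the mean CPM of cells, and DESeq2 called 9 lower. Its count in each list is to be set beside the 351 higher and 417 lower it called of all 14244 genes.

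The smooth muscle actin Acta2 was abundant in both classes, with 9467 and 12126 CPM in airway smooth muscle and 8306 and 7891 CPM in myofibroblasts, a log2 difference of -0.40 ± 0.26 (edgeR adjusted p = 0.78). Cnn1, calponin, a brake on actomyosin, stood at 1551 and 2016 CPM against 203 and 282 CPM (-2.89 ± 0.66, edgeR adjusted p = 0.21). The classes were apart in both mice for both genes, by little for Acta2 and by much for Cnn1, and neither passed the adjusted test in the fit of 12 libraries. The same order held for Myh11, the smooth muscle myosin heavy chain (866 and 1069 CPM against 534 and 761 CPM), Actg2, the gamma smooth muscle actin (3123 and 4275 against 1844 and 1775 CPM), and Myl9, the regulatory light chain (3518 and 5394 against 2179 and 2891 CPM). Reads of the near-identical actins may be shared out between them by the counting, so the values of Acta2, Actg2 and Actc1 are uncertain in that respect.

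Actc1, the cardiac alpha actin, was the extreme of the list, at 316 and 1193 CPM in airway smooth muscle and 0.273 and 23.1 CPM in myofibroblasts (log2 difference -7.82 ± 2.31, edgeR adjusted p = 0.37). Only 14.7% and 14.3% of airway smooth muscle cells had a read of it, against 53.8% and 60.7% of vascular smooth muscle cells in the same mice. The part that vascular smooth muscle cells labelled as airway muscle could have in the Actc1 value was not tested. The 3 members with higher values in both myofibroblast libraries were the actin-binding proteins Cald1 (log2 difference 0.43), Tpm1 (0.25) and Actn1 (0.80).

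Serum response factor and its partner myocardin switch on smooth muscle genes through the CArG box, a short DNA element. RefSeq promoters of build GRCm38.p6, running from 250 bases before to 50 bases after each start, were available for 22 of the 25 contractile genes, and 5 of these (22.7%) held a CArG box by its strict letters on either strand. Over all tested genes with a promoter, 172 of 10693 (1.61%) did. None of the 10 called genes with a promoter held one. Shown here are the 250 bases before the start for the 3 matching genes whose classes did not overlap, a choice made after the values were seen because no contractile gene passed the test; the capitals mark the CArG box.
Actc1 (minus strand, chr2:114052876-114053125): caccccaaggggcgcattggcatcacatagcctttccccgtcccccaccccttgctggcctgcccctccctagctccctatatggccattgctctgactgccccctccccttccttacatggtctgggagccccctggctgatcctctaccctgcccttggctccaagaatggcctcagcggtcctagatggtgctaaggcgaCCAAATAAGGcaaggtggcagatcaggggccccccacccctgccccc
Myl9 (plus strand, chr2:156775214-156775463): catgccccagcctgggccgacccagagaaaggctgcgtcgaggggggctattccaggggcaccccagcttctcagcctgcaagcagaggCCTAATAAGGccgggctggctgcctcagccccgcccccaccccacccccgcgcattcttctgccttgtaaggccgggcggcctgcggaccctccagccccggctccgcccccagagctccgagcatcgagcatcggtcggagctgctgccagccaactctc
Myl6 (minus strand, chr10:128493010-128493259): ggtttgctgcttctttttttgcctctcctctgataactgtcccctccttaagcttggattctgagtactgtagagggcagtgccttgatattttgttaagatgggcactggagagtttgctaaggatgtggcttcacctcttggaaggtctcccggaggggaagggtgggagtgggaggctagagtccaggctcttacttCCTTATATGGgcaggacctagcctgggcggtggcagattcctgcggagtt
The box begins 47 bases before the start in Actc1, 161 in Myl9 and 50 in Myl6. A match describes letters in this window and says nothing of binding.

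Myocardin itself followed the airway muscle. Myocd had 741 and 680 CPM in airway smooth muscle and 123 and 133 CPM in myofibroblasts (log2 difference -2.47 ± 0.33, edgeR adjusted p = 0.055). Of 22 tested regulators of contraction, 10 lay below and 2 above in both myofibroblast libraries (median -0.39), against 20.1% and 23.8% of all genes. None passed in edgeR (7 lower and 0 higher at an unadjusted p under 0.05), none in limma, and DESeq2 called 7 lower. Both subunits listed for the large-conductance potassium channel were among the 10, the pore Kcnma1 at 160 and 211 against 7.86 and 16.2 CPM and the accessory Kcnmb1 at 59.5 and 67.0 against 13.0 and 4.88 CPM. So was the myosin phosphatase subunit Ppp1r12b (213 and 239 against 52.3 and 82.9 CPM).

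Receptors for substances that set airway tone were mostly low. Of 15 tested, 5 lay below and 1 above in both myofibroblast libraries (median -0.23), against 20.1% and 23.8% of all genes. None passed in edgeR or limma (3 lower and 1 higher at an unadjusted p under 0.05 in edgeR), and DESeq2 called 3 lower. Ednrb, an endothelin receptor, stood at 249 and 426 CPM in airway smooth muscle against 61.0 and 106 CPM in myofibroblasts (log2 difference -2.02 ± 0.34, edgeR adjusted p = 0.10). The 1 higher in myofibroblasts was P2ry14, a receptor for UDP-sugars, at 2243 and 2138 against 1515 and 1455 CPM.

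Of 12 hedgehog pathway genes, 5 lay below and 1 above in both myofibroblast libraries (median -0.25), against 20.1% and 23.8% of all genes. There were 0 calls in edgeR (3 lower at an unadjusted p under 0.05) and in limma and 2 lower in DESeq2. Hhip, the decoy that binds hedgehog ligands and is itself a target of the pathway, stood out with 991 and 1481 CPM in airway smooth muscle against 74.8 and 175 CPM in myofibroblasts (log2 difference -3.41 ± 0.46, edgeR adjusted p = 0.055). Other targets did not share that size of difference: Gli1 had 23.7 and 18.4 against 12.6 and 8.63 CPM, and the receptor Ptch1 had 151 and 106 against 138 and 140 CPM, overlapping between the classes.

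Of 30 Wnt pathway genes, 13 lay below and 5 above in both myofibroblast libraries (median -0.40), against 20.1% and 23.8% of all genes. None passed in edgeR (4 lower and 1 higher at an unadjusted p under 0.05) or limma, and DESeq2 called 5 lower. Lgr6, a receptor for R-spondins that amplifies Wnt signals, had 348 and 403 CPM in airway smooth muscle against 47.6 and 70.4 CPM in myofibroblasts (log2 difference -2.69 ± 0.64, edgeR adjusted p = 0.22). The ligand Wnt5a had 1067 and 755 against 598 and 412 CPM, and the feedback inhibitor Nkd1 had 275 and 350 against 148 and 103 CPM. Lef1, a transcription factor that carries the Wnt signal to DNA, ran the other way, with 18.8 and 8.37 CPM in airway smooth muscle and 56.9 and 36.2 CPM in myofibroblasts.

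The growth factor genes went both ways. Of 20 tested genes of platelet-derived and fibroblast growth factor signalling, 7 lay above and 7 below in both myofibroblast libraries (median -0.40). The shares of all genes tested were 23.8% above and 20.1% below. None of the 20 passed in edgeR (4 higher and 5 lower at an unadjusted p under 0.05) or limma, and DESeq2 called 2 higher and 3 lower. Among receptors, Pdgfra had 355 and 253 CPM in myofibroblasts against 40.8 and 10.8 CPM in airway smooth muscle (log2 difference 3.83 ± 0.55, edgeR adjusted p = 0.060). Pdgfrb had 101 and 84.9 against 39.8 and 12.0 CPM, and Spry4 and Dusp6, which restrain the signal downstream of such receptors, had 80.0 and 70.3 against 5.58 and 21.1 CPM and 132 and 80.3 against 72.9 and 24.5 CPM. Other receptors and feedback genes did not share that direction: Fgfr1 had 126 and 62.7 CPM in myofibroblasts against 199 and 157 CPM, Fgfr3 was under 5 CPM with lower values in myofibroblasts, and Spry1 and Spry2 overlapped between the classes. The ligand genes Pdgfa (40.9 and 104 against 23.0 and 21.8 CPM), Fgf7 (166 and 193 against 45.6 and 61.1 CPM) and Fgf18 (361 and 328 against 137 and 151 CPM) were higher in both airway smooth muscle libraries.

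Of 26 genes of transforming growth factor beta and bone morphogenetic protein (BMP) signalling, 13 lay below and 5 above in both myofibroblast libraries (median -0.49). The shares of all genes tested were 20.1% below and 23.8% above. No member was called in edgeR (9 lower and 2 higher at an unadjusted p under 0.05) or limma, and DESeq2 called 7 lower and 1 higher. Secreted BMP antagonists were on the airway muscle side: Grem1 had 288 and 140 CPM against 15.6 and 7.61 CPM in myofibroblasts (log2 difference -4.20 ± 0.53, edgeR adjusted p = 0.057), and Fst, follistatin, had 46.0 and 76.7 against 0.326 and 1.28 CPM. The ligand Bmp4 was higher in both myofibroblast libraries, at 243 and 286 against 89.0 and 96.2 CPM. Id2 and Id4, inhibitory helix-loop-helix proteins that BMP signals induce, were lower in both, Id4 at 50.2 and 39.8 against 259 and 251 CPM. The other two Id genes listed differed from them: Id3 had 1049 and 1211 CPM in myofibroblasts against 877 and 872 CPM, and Id1 overlapped. Tgfbi, an extracellular protein induced by transforming growth factor beta, was abundant in both classes, with lower values in both myofibroblast libraries (4822 and 3188 against 9578 and 8374 CPM, log2 difference -1.19 ± 0.17, edgeR adjusted p = 0.057).

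Of the 14 genes of the insulin-like growth factor and hormone list, 2 passed in edgeR, Enpp2 and Igfbp4, both lower in myofibroblasts. At an unadjusted p under 0.05 in edgeR, 7 were lower and 1 higher. The same 2 were called in limma, and DESeq2 called 6 lower and 1 higher, Igf1 among the lower. In all, 10 lay below and 4 above in both myofibroblast libraries (median -0.72), against 20.1% and 23.8% of all genes. Igf1, the growth factor itself, had 1053 and 1251 CPM in airway smooth muscle against 554 and 865 CPM in myofibroblasts (log2 difference -0.73 ± 0.17, edgeR adjusted p = 0.23). Stc1, stanniocalcin, had higher values in both myofibroblast libraries (186 and 189 CPM), but the airway smooth muscle libraries disagreed about it, with 4.31 and 111 CPM.

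Elastin and most of the elastic fibre were not higher in myofibroblasts than in airway smooth muscle. Of 22 genes, 10 lay below and 4 above in both myofibroblast libraries (median -0.63), against 20.1% and 23.8% of all genes. In edgeR and in limma 1 passed, Mfap4, lower in myofibroblasts (10 lower and 2 higher at an unadjusted p under 0.05 in edgeR). DESeq2 called 6 lower, among them Eln, Loxl1 and Fbln5. Elastin itself, Eln, had 3145 and 2663 CPM in airway smooth muscle against 2095 and 1539 CPM in myofibroblasts (log2 difference -0.69 ± 0.16, edgeR adjusted p = 0.22). The crosslinking enzyme Loxl1 (384 and 386 against 234 and 164 CPM) and the assembly protein Fbln5 (206 and 122 against 68.9 and 32.4 CPM) ran the same way. Microfibril proteins went both ways: besides Mfap4, Mfap5 had lower values in both myofibroblast libraries (486 and 730 against 1460 and 2522 CPM) and Mfap2 overlapped, while Fbn1, fibrillin, had 721 and 759 CPM in myofibroblasts against 534 and 470 CPM, and Fbln1 had 421 and 312 against 152 and 208 CPM. Scaled to total reads, Eln in myofibroblasts (2129 and 1575 CPM) exceeded early alveolar fibroblasts (684 and 450 CPM) and pericytes (0.149 and 9.99 CPM). It was higher still in vascular smooth muscle (13314 and 10835 CPM) and early adventitial fibroblasts (4658 and 3066 CPM).

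The interstitial matrix list was the most one-sided of the matrix lists, with 20 of 24 tested genes below and 2 above in both myofibroblast libraries (median -0.80). The shares of all genes tested were 20.1% below and 23.8% above. In edgeR 1 passed, Postn, which limma did not call (14 lower and 1 higher at an unadjusted p under 0.05 in edgeR). In limma Htra1 was called higher. DESeq2 called 12 lower, Postn, Col1a1, Col3a1 and Col12a1 among them. Aspn, asporin, a small leucine-rich proteoglycan, had 6330 and 8907 CPM in airway smooth muscle against 834 and 1046 CPM in myofibroblasts (log2 difference -3.01 ± 0.51, edgeR adjusted p = 0.11). The fibrillar collagens differed less: Col1a1 had 2617 and 2391 against 1481 and 1360 CPM (-0.82 ± 0.14), and Col3a1 had 3416 and 3201 against 1917 and 1823 CPM (-0.82 ± 0.18). Col12a1, a collagen on the surface of fibrils, had 480 and 504 against 121 and 155 CPM. Htra1, a secreted serine protease, was the main exception, at 1801 and 1178 CPM in myofibroblasts against 359 and 349 CPM (2.04 ± 0.30, edgeR adjusted p = 0.068).

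Basement membrane and integrin genes were mixed, with 11 of 27 below and 4 above (median -0.66), against 20.1% and 23.8% of all genes. None passed in edgeR (5 lower and 3 higher at an unadjusted p under 0.05) or limma, and DESeq2 called 3 lower and 2 higher. The laminin chain Lamb1 had 361 and 473 CPM in myofibroblasts against 128 and 75.9 CPM in airway smooth muscle (log2 difference 2.07 ± 0.32, edgeR adjusted p = 0.078), and Itga1, a collagen-binding integrin chain, 92.5 and 135 against 49.6 and 29.9 CPM. Col4a1, a chain of the main basement membrane collagen, went the other way (434 and 369 against 807 and 711 CPM).

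Guidance and Notch genes were also mixed, with 10 of 31 below and 7 above (median -0.21), where 20.1% and 23.8% of all genes tested lay so, no call in edgeR (4 lower and 5 higher at an unadjusted p under 0.05) or limma, and 5 lower and 4 higher in DESeq2. Ntn1, netrin, had 237 and 140 CPM in airway smooth muscle against 59.6 and 18.4 CPM in myofibroblasts, while the receptors Robo2 (166 and 370 against 70.6 and 115 CPM) and Unc5b (154 and 130 against 49.4 and 79.7 CPM) were higher in both myofibroblast libraries. Of 33 tested transcription factors of lung mesenchyme, 11 lay above and 7 below (median 0.31), also near those shares for the lower ones, and none passed in edgeR (3 in each direction at an unadjusted p under 0.05) or limma, and DESeq2 called 1 higher and 2 lower. Sox9, a regulator of cartilage and other matrix genes, had 69.2 and 68.2 CPM in airway smooth muscle against 1.58 and 9.95 CPM in myofibroblasts, and the nuclear receptor Nr2f2 had 74.9 and 71.6 against 123 and 135 CPM.

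**Figure D2:**
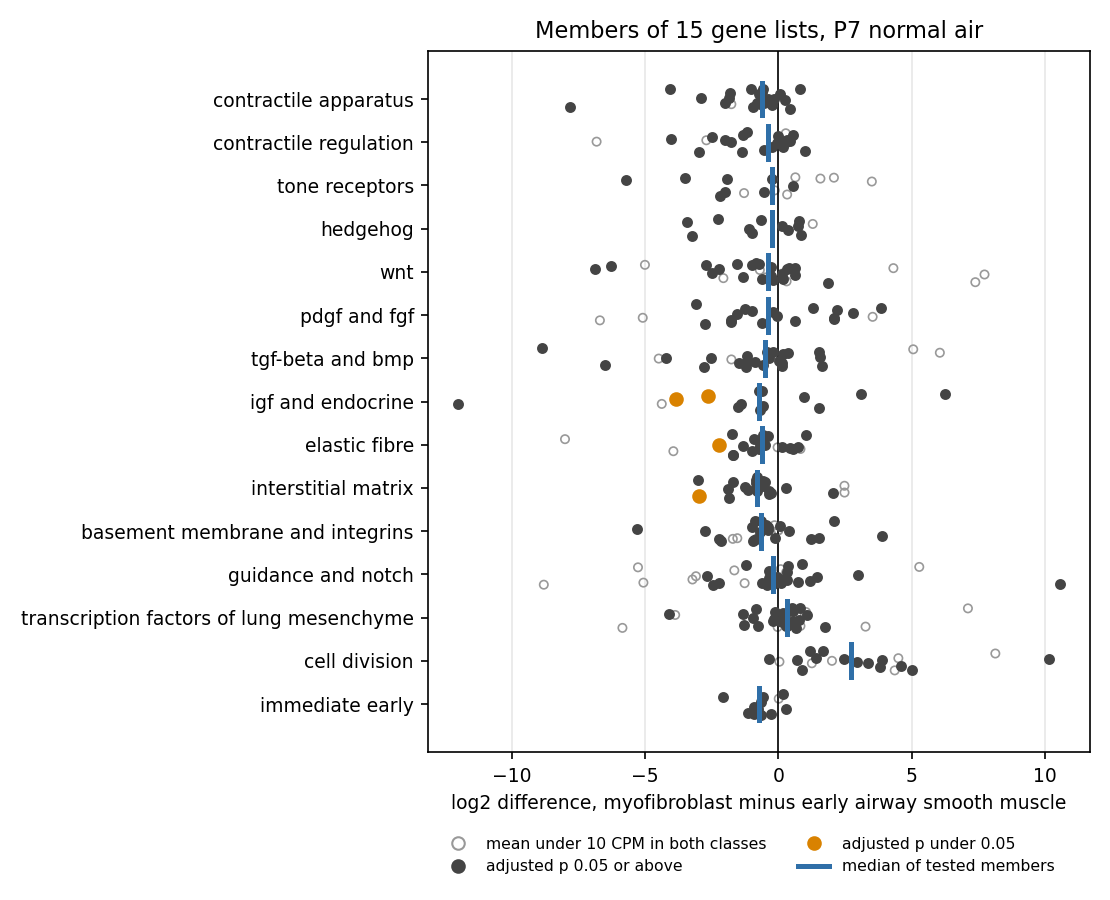
Fitted log2 difference (myofibroblast minus early airway smooth muscle, P7 normal air) of every tested member of 15 gene lists; orange points passed an adjusted p of 0.05, hollow points had a mean under 10 CPM in both classes, and the blue bar is the list's median. Medians lie between -0.80 and 0.31, apart from cell division at 2.70, and the 4 orange points are Enpp2, Igfbp4, Mfap4 and Postn.

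Cell division genes leaned towards myofibroblasts, from which the separately labelled proliferating myofibroblasts had been left out. Of 20 genes, 11 lay above and 0 below in both myofibroblast libraries, against 23.8% and 20.1% of all genes. There was no call in edgeR (5 higher at an unadjusted p under 0.05) or limma, and DESeq2 called 4 higher. Rrm2, a subunit of ribonucleotide reductase, had 89.1 and 40.5 CPM against 4.09 and 0.821 CPM in airway smooth muscle, and Tyms, thymidylate synthase, had 92.8 and 78.0 against 1.53 and 24.3 CPM. The mice were not alike in this respect: scaled to total reads, the summed level of the 20 genes was 162 CPM in the FP7 and 625 CPM in the MP7 airway smooth muscle, against 826 and 814 CPM in myofibroblasts. It was 10619 and 10139 CPM in the cells labelled proliferating myofibroblasts. When these were joined to the myofibroblasts, the edgeR calls became 21 higher and 32 lower, 17 of the 18 among them.

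Immediate early genes, which respond within minutes to handling as well as to growth signals, leaned towards airway smooth muscle. Of 16, 10 lay below and 0 above in both myofibroblast libraries (median -0.72), against 20.1% and 23.8% of all genes. There was no call in edgeR (6 lower at an unadjusted p under 0.05) or limma, and DESeq2 called 4 lower. Fos had 2793 and 2267 CPM in myofibroblasts against 5598 and 3572 CPM in airway smooth muscle. The part of handling in the class differences was not tested.

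Markers of epithelial, endothelial, immune, erythroid, neural and mesothelial cells were low. The 11 epithelial, 10 endothelial, 13 immune and 5 erythroid markers in the table summed to 48.0 to 107 CPM, 1.15 to 11.8 CPM, 8.24 to 74.2 CPM and 1.15 to 11.3 CPM in the 4 libraries, scaled to total reads, and 10 neural and mesothelial markers to 18.3 to 77.1 CPM. Among the erythroid markers, Hba-a1 had no read in any of the 4. The macrophage lysozyme Lyz2 had 52.2 and 26.1 CPM in myofibroblasts and 1.44 and 1.28 CPM in airway smooth muscle. The 11 vascular smooth muscle and pericyte markers were not low: they summed to 2369 to 2818 CPM in airway smooth muscle and 492 to 524 CPM in myofibroblasts. In vascular smooth muscle itself they summed to 3985 and 4470 CPM, and in pericytes to 17851 and 20742 CPM. Most of the airway smooth muscle sum was Postn and Kcnj8, 2 of the called genes. Rgs5 had 208 and 280 CPM in airway smooth muscle against 37.3 and 66.4 CPM in myofibroblasts. Of the 14 alveolar and adventitial fibroblast markers, Cd34 made up most of the sum in myofibroblasts (1062 and 999 CPM in all), at 773 and 547 CPM against 30.5 and 17.3 CPM in airway smooth muscle (log2 difference 4.82 ± 2.13, edgeR adjusted p = 0.62). The part of these RNAs in the class differences was not tested.

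Single cells showed how far the classes were separable. At 100000 reads per cell, Cnn1 was read in 89.3% (95% exact binomial interval 80.1 to 95.3) and 85.7% (74.6 to 93.3) of airway smooth muscle cells in FP7 and MP7 and in 30.9% (23.7 to 38.9) and 33.7% (26.8 to 41.2) of myofibroblasts. In early alveolar fibroblasts it was read in 0.478% and 0% of cells. The part of stray reads in the share of myofibroblasts was not tested. Intervals cover counting error only. Myofibroblasts had fewer detected genes per cell at this depth (medians 2244 and 2136.5 against 3159 and 2992). The part of this in the shares was not tested. Hhip was read in 88.0% and 87.3% of airway smooth muscle cells against 21.1% and 27.5% of myofibroblasts, with 57.4% and 56.8% of early alveolar fibroblasts, and Gja1 in 94.7% and 98.4% against 36.8% and 36.5% (early alveolar fibroblasts 0.957% and 0%).

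In the other direction, Pdgfra was read in 59.2% and 57.3% of myofibroblasts against 16.0% and 12.7% of airway smooth muscle cells, which is near the 16.7% and 11.4% of early alveolar fibroblasts, and Cd34 in 65.8% and 59.0% against 6.67% and 7.94% (early alveolar fibroblasts 56.9% and 47.7%). Within the myofibroblasts, Pdgfra without Cnn1 was seen in 42.8% and 41.6% of them, Cnn1 without Pdgfra in 14.5% and 18.0%, both in 16.4% and 15.7%, and neither in 26.3% and 24.7%. In airway smooth muscle, Cnn1 without Pdgfra was the rule, with 77.3% and 76.2%, and both were seen in 12.0% and 9.52%. Since a gene can be missed at this depth, a cell without a read is not shown to lack the gene, and whether missed reads alone would give these shares was not tested.

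**Figure D3:**
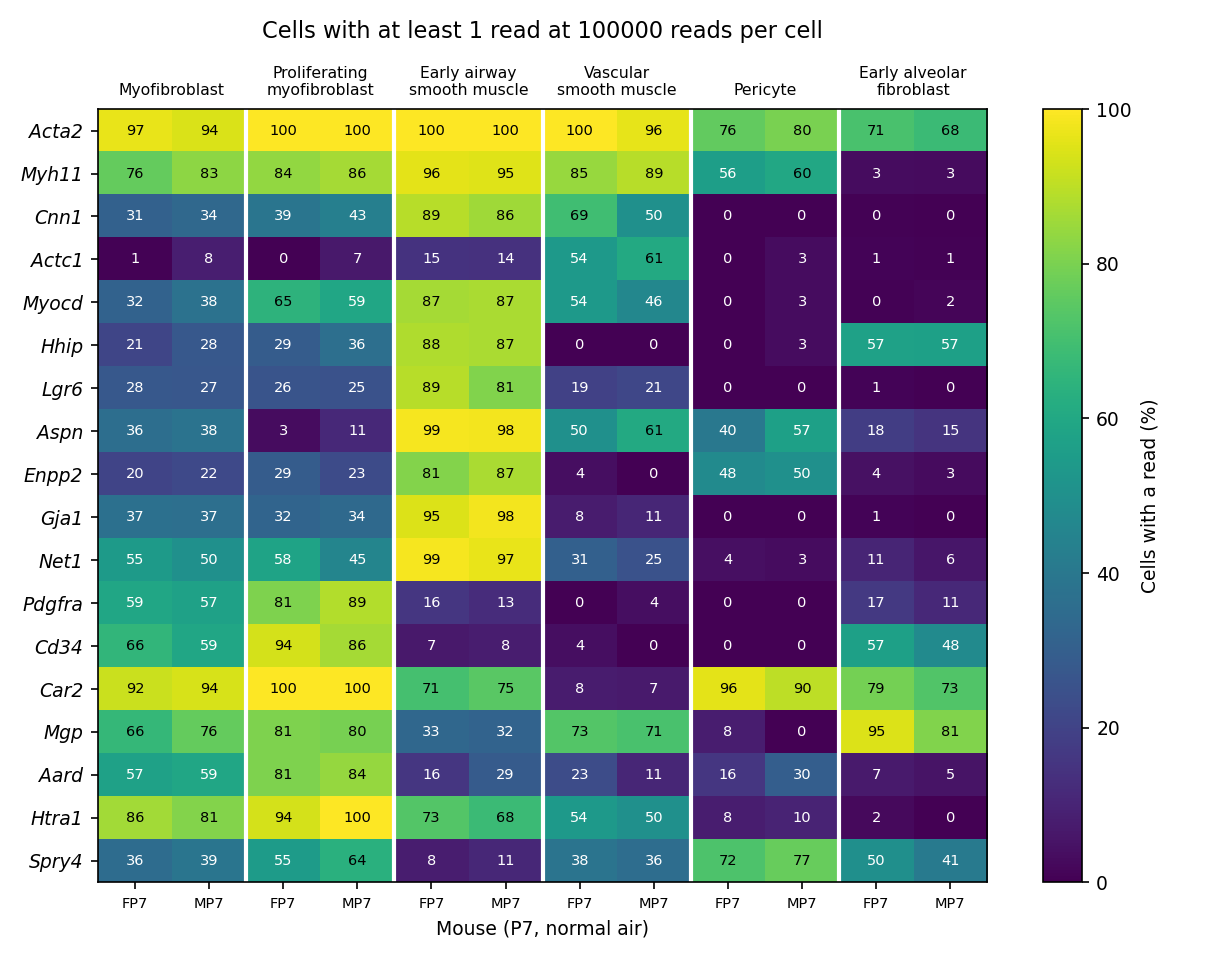
Share of cells (percent) with at least 1 read of 18 genes after thinning to 100000 reads per cell, in 6 classes of the P7 normal mice FP7 and MP7. Cnn1, Hhip, Lgr6, Enpp2 and Gja1 were read in over 80% of early airway smooth muscle cells and in 20.4% to 36.8% of myofibroblasts, while Acta2 was read in 94.4% or more of both.

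Whether the class difference depended on age was addressed by comparing it at P7 with P1. No gene passed in edgeR (0.00% of 14244; 812 at an unadjusted p under 0.05), none in limma, and DESeq2 called 249 with a larger and 171 with a smaller value at P7. Without the P1 mouse FP1, edgeR called 89. Under hyperoxia against normal treatment at P7, no gene passed in edgeR either (0.00%; 392 at an unadjusted p under 0.05) or in limma, and DESeq2 called 23 and 31. Both comparisons use the same P7 normal mice. Each group was sequenced in its own runs apart from the run DC35 that MP1 and MP7 share, so run and group cannot be told apart for the other mice.

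The 18 genes kept their P7 direction elsewhere. In all 4 mice outside the P7 normal group, every one of the 18 differed between the classes in the same direction as in both P7 normal mice, which held for 11.6% of all genes tested and for 19.5% of the 8449 genes with 1 direction in both P7 normal mice. These 4 mice entered the fit and its estimate of spread, but their direction was not used to choose the genes, and the same subtype labels apply to them. The 18 were chosen by p-value, and the 8449 genes were not matched to them for size of difference or spread. These shares are therefore no test of the 18. The size varied. The difference in Enpp2 was -3.85 at P7, -1.37 at P1 and -2.96 under hyperoxia, and that in Kcnj8 was -3.35, -0.94 and -2.85. At P1 Kcnj8 stood at 414 and 486 CPM in myofibroblasts (FP1 and MP1), against 57.7 and 62.1 CPM at P7, with 819 and 906 CPM in airway smooth muscle.

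Penk and Mgp also differed less between the classes at P1. Penk had 263 and 183 CPM in airway smooth muscle and 394 and 264 CPM in myofibroblasts at P1 (log2 difference 0.56, against 2.60 at P7). Mgp had 1430 and 1803 against 3164 and 3196 CPM at P1 (0.99, against 2.41 at P7), and 1332 and 1136 against 2491 and 1966 CPM under hyperoxia (0.85). For Mgp the level in P7 normal airway smooth muscle, 355 and 307 CPM, was the low one among the groups. Anxa8 was at 84.3 and 39.2 CPM in myofibroblasts under hyperoxia, against 3.98 and 3.82 CPM in normal air, and at 0 in both P1 libraries. None of these differences between groups passed the adjusted edgeR test.

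Among the markers, Hhip, Lgr6, Cnn1, Pdgfra and Cd34 kept their direction in all 6 mice. Hhip in myofibroblasts was 297 and 157 CPM at P1, 74.8 and 175 CPM at P7 and 40.3 and 23.1 CPM under hyperoxia. Cd34 in myofibroblasts was 394 and 501 CPM at P1 and 1413 and 1168 CPM under hyperoxia. The ranges of P7 normal and hyperoxia do not overlap for either gene, and the differences of class differences did not pass (edgeR adjusted p = 1.00 for both).

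**Figure D4:**
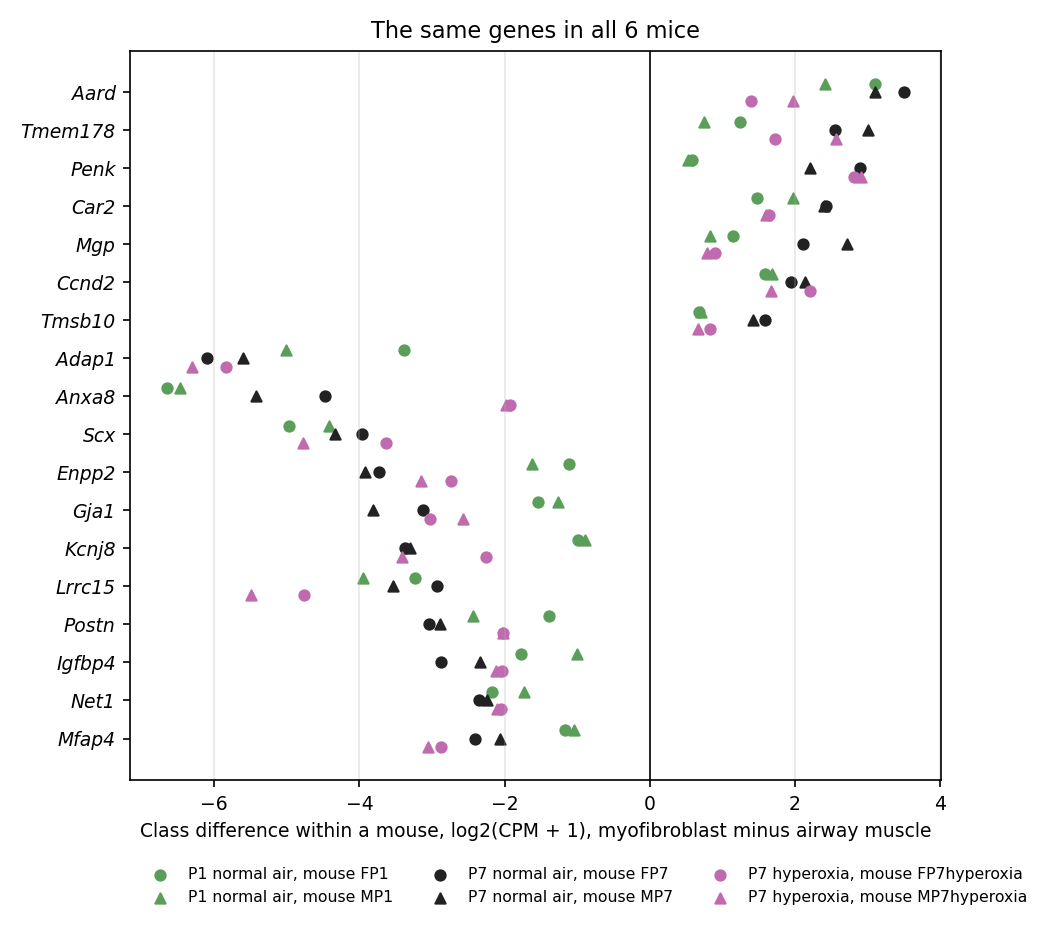
Class difference within each of 6 mice, on the log2(CPM + 1) scale (myofibroblast minus early airway smooth muscle), for the 18 genes; green is P1, black P7 normal air and purple P7 hyperoxia, circles are female and triangles male mice. All points of the 7 upper genes lie right of 0 and all points of the 11 lower genes lie left of 0.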

How the data were processed

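The authors deposited whole-number read counts per gene and cell, not normalized, from plates of Tn5 libraries (per the labels' protocols) with no molecular identifiers named. The submitters' processing notes name STAR 2.5.2b, HTSeq 0.10 and the build GRCh38, with no role or order; how the counting treats strand or shared reads is not given in the sources used here. Of 5480 columns, 2082 were not used. No row lacked a gene name.

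Reads were summed per mouse and class (12 libraries, 6 mice). edgeR 4.0.16 (filterByExpr by class and group, TMM, default options) was fitted with mouse as a block, since both classes come from the same animal, and 1 class term per group, on all 14244 genes passing the filter, leaving 3 residual degrees of freedom. The standard error is the fold divided by the root of F. A fit with robust options was run first and its calls were seen; the default was then kept because the written design names no such option. DESeq2 1.42.0 and limma 3.58.1 (mean CPM of cells, pseudocount 1) were alternatives. Named genes were those with an adjusted p under 0.05, at least 10 CPM in 1 class and the same direction in both P7 normal mice, up to 12 each way; list members were named by role. Members and lists were chosen with earlier results of these data known. The fits were tested on simulated data: edgeR and limma stayed within the limit first set for false calls and DESeq2 went past it in 1 comparison (hyperoxia minus normal), after which the limit was required of edgeR only, so DESeq2 counts are to be read with that in mind.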

Additional observations from a re-analysis of the deposited data

Results flagged for a closer look

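Among the genes followed through every setting, 4 had a class difference that went one way in both P7 normal mice and the opposite way in both mice of another group; none of these reversals passed the edgeR test of the difference between groups (adjusted p between 0.727 and 1.00). They are not rare cases: of 14244 genes tested, 1220 were opposite in both P1 mice and 1447 in both hyperoxia mice, and of 375 tested list members 22 and 23. Des, desmin, was lower in myofibroblasts at P7 in normal air (log2 difference -0.53) and higher in both mice under hyperoxia (0.33). Kcnmb1 was lower at P7 (-2.98) and higher at P1 (1.54), at 26.1 and 24.9 CPM in myofibroblasts against 9.85 and 7.82 CPM in airway smooth muscle. Igfbp5 was higher in myofibroblasts at P7 in normal air (1.52) and lower in both mice at P1 (-1.48) and under hyperoxia (-2.72). Tnc, tenascin, was higher at P7 (0.28) and lower at P1 (-0.40).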

How the results depend on the processing

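All 18 named genes kept their direction under each of the 18 other settings, and the number called moved with the setting. Against 18 in the fit reported, edgeR called 55 genes without the filter on low counts, 34 with no replicate block (mice not paired), 87 after thinning cells to 100000 reads, 53 with proliferating myofibroblasts joined, 95 with the 4 P7 normal libraries alone, 5 on plate 1 and 0 on plate 2 (534 at an unadjusted p under 0.05), and DESeq2 called 768. Leaving out 1 mouse gave 0 to 122 calls: 0 without FP7 or MP7 (where the lone P7 normal mouse is assumed to vary like the others), 116 without FP1, 122 without MP1, 16 without FP7hyperoxia and 8 without MP7hyperoxia. Robust options, added after seeing the data, gave 25. DESeq2 size factors gave 18, the mesenchymal sort alone 18 and limma 16. For P7 minus P1, DESeq2 called 420 and the fit with no replicate block 2, and leaving out 1 mouse gave 0 to 89, the 89 without FP1. For hyperoxia minus normal, DESeq2 called 54 and every edgeR and limma setting 0. Genes detected per cell by class also moved: the excess in airway smooth muscle cells, 885 at 100000 reads, was 810 at 50000 reads and 805 without thinning, and 855.5 to 915 in the single mice. Of 2034 gene values under the alternatives 15 reversed, those of 6 genes whose reported values lay between -0.23 and 0.14. Ptch1 (0.13) was -0.45 on plate 2, and -0.15 to 0.42 with single mice left out. Tgfb2 (0.03) was -0.0388 with DESeq2 size factors, -0.0388 in DESeq2, -0.0367 with proliferating cells joined, -0.26 on plate 1 and -0.0266 in limma. Spry2 (-0.05) was 0.89 on plate 2, 0.0027 after thinning, 0.0665 in limma, and -0.44 to 0.33 with single mice left out. Spry1 (-0.19) was 0.083 on plate 2, and -0.40 to 0.0285 with single mice left out. With single mice left out, Ednra (-0.23) was -0.63 to 0.18 and Mfap2 (0.14) was -0.0623 to 0.34. Of 432 list medians, 138 moved by more than the spread of the 2 mice. The cause of the differences between settings was not tested.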
